A study of Mus musculus with 26 samples.

Results

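The respiratory chain subunits described here are the protein-coding genes of the mouse table whose symbols begin with Nduf followed by a, b, c, s or v and a number, with Sdh, with Uqcr, with Cox4 to Cox8, with Atp5 or with mt-. They number 98 of the 55471 genes in the table. The nuclear genome holds 85 of them and the mitochondrial genome 13. By complex, the nuclear members number 35 in complex I, 4 in complex II, 8 in complex III, 20 in complex IV and 18 in complex V, and the mitochondrial ones 7 in complex I, 1 in complex III, 3 in complex IV and 2 in complex V. Ndufa4 and Ndufa4l2, named as complex I genes, are counted here with complex IV, where the Ndufa4 protein is found. The patterns miss Cyc1 of complex III and Ndufab1 of complex I, whose values are given apart. The rule for members uses symbols and no measured value, but it was set with earlier results of these data known.

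The cells were KH2, a line of mouse embryonic stem cells (ESCs). The groups were cells labelled NAP1L1 alpha knock-out (alpha-KO), cells labelled NAP1L1 knock-out and titled full-KO, and wild-type cells (WT), each taken at day 0, day 2 and day 4 of differentiation induced with retinoic acid. NAP1L1 is a chaperone for histones H2A and H2B, and the study asked what its loss does to transcription in differentiating ESCs. There were 26 libraries, 3 in each group except full-KO at day 0, which had 2, and stranded mRNA libraries were sequenced in bulk. Each knockout genotype carries a single line name in the library names, so line and genotype cannot be told apart, and the labels do not say what alpha removes. The labels do not say that the replicates were separate cultures, so every p-value here measures only the spread between these libraries.

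The respiratory chain sits in the inner mitochondrial membrane. Complexes I and II take electrons from NADH and succinate, complex III passes them through cytochrome c to complex IV, which reduces oxygen, and complexes I, III and IV pump protons whose return through complex V makes ATP. Every complex except II mixes subunits made in the cytosol from nuclear genes with core subunits made inside mitochondria from the mitochondrial genome. Pluripotent stem cells lean on glycolysis more than most differentiated cells do, and complex IV and complex V have subunits with alternative isoforms used in particular tissues.

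Some members could not be measured. Of the 98, 87 passed the filter on low counts and were tested, 80 nuclear and 7 mitochondrial. The other nuclear ones were Cox7b2, Cox6a2, Cox8b and Cox8c, isoform genes known from testis or striated muscle, with between 9 and 76 counts over all 26 libraries, and a second row named Atp5o with 0. The 6 mitochondrial genes left out, mt-Co2, mt-Co3, mt-Atp6, mt-Atp8, mt-Nd3 and mt-Nd4l, each had 0 counts in all 26 libraries, whereas the 7 others on the same genome had between 411 and 5323 CPM (counts per 1000000 counts) in every library. Of the 50-base stretches in these genes, all of those of mt-Co2 were also found in another annotated gene, as were 99.9% for mt-Co3, 99.5% for mt-Atp6, 98.8% for mt-Nd4l and 98.0% for mt-Nd3. For mt-Atp8 the share was 0%. Only annotated transcripts were compared, so a nuclear copy without annotation would not be seen. For each of the other 5 genes the partner that shared most was an unprocessed pseudogene on chromosome 1, a copy of mitochondrial DNA, between 24612407 and 24615565 (GRCm38). For mt-Co2 a pseudogene on chromosome 2, Gm13341, shared 35.3% of the stretches and had 1024 counts over the 26 libraries. The matching copy of mt-Co2, Gm28661, differed from it at 0 of the 681 bases compared, and it had 27 counts over the 26 libraries. The start of both genes is shown because identical letters leave a read no means of telling them apart, as read from the GENCODE M21 transcripts (GRCm38) (mt-Co2 on the plus strand of chrM:7013-7696, Gm28661 on the minus strand of chr1:24614885-24615565):
mt-Co2: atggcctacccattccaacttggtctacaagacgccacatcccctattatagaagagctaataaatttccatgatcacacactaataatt
Gm28661: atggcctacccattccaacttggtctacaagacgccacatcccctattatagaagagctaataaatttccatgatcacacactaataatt
The sources used here do not give how reads that fit several places were treated, so the part of that step in these zeros was not tested. Among the mitochondrial genes that were counted, 62.2% of the 50-base stretches of mt-Nd4 and 51.1% of those of mt-Co1 were shared with other genes, against 8.19% for mt-Nd2, 7.61% for mt-Nd5 and 0% for mt-Nd1, mt-Nd6 and mt-Cytb. The levels of mt-Nd4 and mt-Co1 are therefore uncertain. So are those of nuclear members that share such stretches, among them Atp5g2 (38.3% shared), Uqcrb (25.5%) and Cox7c (22.1%), mostly with processed copies, Ndufb6 (31.6%), with the overlapping gene Smim27, and Atp5o (41.6%), with antisense genes, the second row of that name and a processed copy. Since mt-Nd6 lies on the strand opposite to its neighbours and the strand setting of the counting is not given, its reads and antisense ones cannot be told apart.

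The promoters of the nuclear members were rich in 1 motif. RefSeq promoters (GRCm38.p6) were matched for 66 of the 85 nuclear members and read from 250 bases before to 30 bases after the transcription start, on both strands. A gene was counted when any of its promoters matched. The letters GCGCA, any base and GCGC in a row fit the site of NRF1, a factor known to drive respiratory chain genes. They were found for 16 of the 66 members (24.2%) and for 1345 of all 27025 genes with such promoters (4.98%). The site letters of the ETS family, CCGGAAGT, were found for 7.58% of the members against 4.12% of all genes. Those of estrogen-related receptors, AAGGTCA, were in 9.09% against 5.1%, those of YY1, AAGATGGC, in 4.55% against 2.66%, and TATAAA in 10.6% against 15.1%. No motif searched contains another, and a match is a description of the letters only. Of the 16, the 8 with the largest falls in WT cells are shown, with the motif in capitals as read 5′ to 3′ on the strand of the gene, so that the letters in capitals are the motif or its reverse complement:
Ndufs6 promoter: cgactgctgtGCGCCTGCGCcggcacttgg
Atp5g2 promoter: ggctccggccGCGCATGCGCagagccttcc
Uqcrc1 promoter: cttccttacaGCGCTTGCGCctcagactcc
Atp5o promoter: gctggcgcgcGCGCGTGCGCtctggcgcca
Atp5k promoter: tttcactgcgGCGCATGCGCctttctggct
Ndufa5 promoter: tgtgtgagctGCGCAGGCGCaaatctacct
Atp5g3 promoter: gagccgcaccGCGCTTGCGCgcccagcc
Atp5h promoter: gaccccgacgGCGCAGGCGCcgcgcccgcc
They lie at chr13:73328479-73328508 (minus strand), chr15:102671070-102671099 (minus), chr9:108936643-108936672 (plus), chr16:91931602-91931631 (minus), chr5:108434430-108434459 (minus), chr6:24527697-24527726 (minus), chr2:73911297-73911324 (minus) and chr11:115420041-115420070 (minus). For Atp5g2 and Atp5h, the stretch just after the transcription start was not found in a GENCODE M21 transcript of the gene. The starts used for these genes are therefore less certain.

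Across the series, libraries held 13537267 to 20569706 counts. Nap1l1 itself averaged 599 ± 26.8 CPM in alpha-KO, 399 ± 2.495 in full-KO and 1025 ± 37.9 in WT cells at day 0 (SD, n = 3, 2 and 3 libraries), so reads of the gene were still counted in both knockouts, and the sources used here do not give which part of it is deleted. The summed CPM of 8 pluripotency markers was 4525 to 4670.3 in alpha-KO, 4748 to 4755 in full-KO and 3788 to 3950.2 in WT cells at day 0, and 269 to 289 in alpha-KO, 401 to 423 in full-KO and 73.3 to 83.6 in WT cells at day 4, with all 8 detected in every group. The 10 fibroblast markers, genes that feeder cells also express, summed to 1383 to 2144 CPM in alpha-KO, 277 to 417 in full-KO and 2573 to 3406 in WT cells at day 0, and none of the 10 was at 0 in every library of any group. The 6 striated muscle markers summed to at most 39.6 CPM in any library. Their part in the results below was not tested. In bulk samples, fewer cells of a type and less RNA per cell cannot be told apart. Differences were tested with edgeR's quasi-likelihood test, adjusted by Benjamini-Hochberg over the 18412 genes tested, and called at an adjusted p under 0.05. Fold changes are on the log2 scale with their standard error (SE), and levels are CPM.

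In undifferentiated WT cells, the mitochondrially encoded genes were far above the nuclear ones per kb of merged annotated exons. At day 0, mt-Co1, the catalytic subunit of complex IV, averaged 3345 ± 96.3 CPM per kb (SD, n = 3), and mt-Nd1 averaged 3184 ± 372. The complex III subunit mt-Cytb followed at 1808 ± 222 CPM per kb, mt-Nd2 at 1272 ± 191, mt-Nd6 at 1042 ± 106, mt-Nd5 at 1012 ± 100.05 and mt-Nd4 at 631 ± 45.99, all of them complex I subunits apart from mt-Cytb. In that order, mt-Co1 and mt-Nd1 overlapped between libraries, as did mt-Nd2, mt-Nd6 and mt-Nd5. The highest nuclear genes were the catalytic pair of the ATP synthase, Atp5b with 462 ± 15.9 and Atp5a1 with 432 ± 10.4 CPM per kb, whose libraries did not overlap, then Cox4i1 with 243 ± 5.37 and Cox8a with 211 ± 25.2, structural subunits of complex IV. Together the 7 counted mitochondrial genes took 1.23 to 1.45% of all counts in WT cells at day 0.

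Nuclear subunit genes fell as WT cells differentiated, most of it by day 2. Of the 80 nuclear members tested, 63 fell and 2 rose from day 0 to day 2, where 70.7% of all genes were called, 36.7% higher and 34% lower. By day 4, 60 were lower and 8 higher than at day 0, where 77.4% of all genes were called, 40.7% higher and 36.7% lower. The median log2 fold change of the nuclear members was -0.43 at day 2 and -0.47 at day 4, against 0.06 and 0.10 for all genes tested. Their summed level was 9958 to 10475 CPM at day 0, 7127 to 7397 at day 2 and 6794 to 6901 at day 4 over the 3 libraries of each day, so the 3 days did not overlap. The sums of 10 fibroblast markers, 2573 to 3406 CPM at day 0, 754 to 844 at day 2 and 1471 to 1573 at day 4 in WT cells, and of 4 neural progenitor markers, 61.4 to 65.7, 367 to 398 and 601 to 684 CPM on the same 3 days, also differed between the days without overlap, and their part in the result was not tested.

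**Figure D1:**
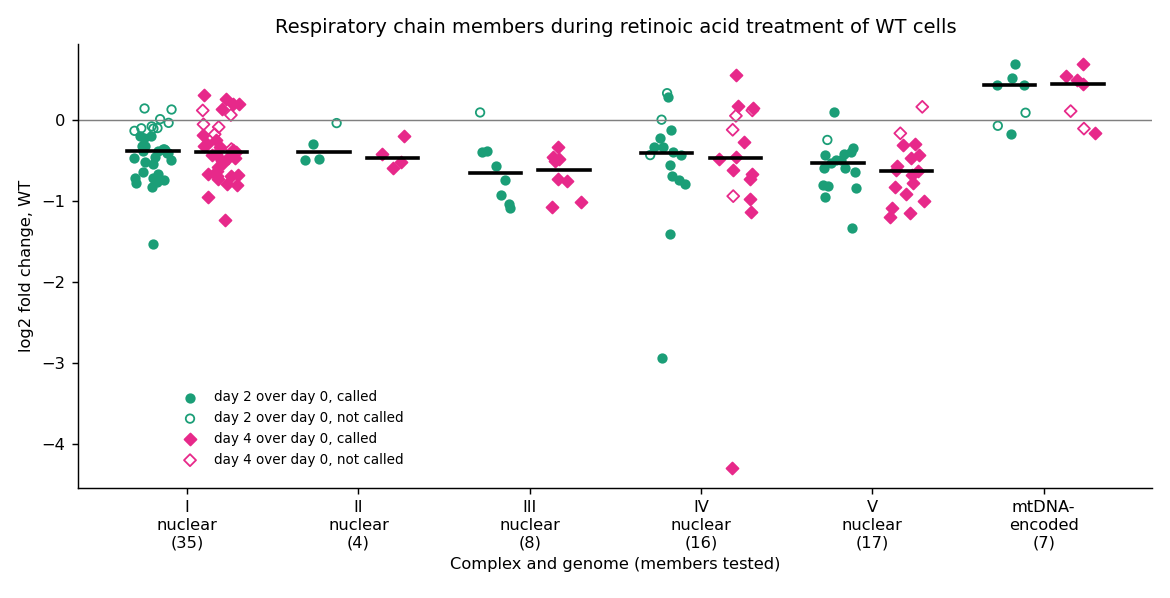
Log2 fold change of each tested subunit gene in WT cells at day 2 and at day 4 against day 0, by complex and by genome, with a point per gene, filled where called, and a bar at the median. Nuclear members of every complex lie mostly below 0. Their bars, drawn for each complex, run from -0.65 to -0.37 at day 2 and from -0.62 to -0.39 at day 4. Over all nuclear members together the medians are -0.43 at day 2 and -0.47 at day 4. The mitochondrially encoded ones lie mostly above 0, with medians of 0.43 and 0.45.

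The fall ran through all 5 complexes. Of those at day 4, it took in 24 of the 35 tested nuclear genes of complex I, all 4 of complex II, all 8 of complex III, 9 of 16 of complex IV and 15 of 17 of complex V. In complex I, Ndufs6, an accessory subunit of the NADH-binding arm, had 72.3, 66.9 and 66.1 CPM in the WT libraries at day 0, 46.8, 51.99 and 48.3 at day 2 and 33.5, 25.96 and 28.7 at day 4. The 3 days did not overlap, and the log2 fold change at day 4 against day 0 was -1.23 ± 0.07, adjusted p = 1.01e-20. In complex V, Atp5a1, which forms the catalytic head with Atp5b, had 1389, 1345 and 1325 CPM at day 0, 686, 715 and 703 at day 2 and 604, 615 and 618 at day 4. Atp5b had 1999, 1997 and 1881 CPM on day 0, 1339, 1339.7 and 1395 on day 2 and 1119, 1093 and 1106 on day 4. Both stepped down at each day without overlap, with log2 fold changes at day 4 against day 0 of -1.14 ± 0.03, adjusted p = 6.91e-32 for Atp5a1 and -0.82 ± 0.03, adjusted p = 6.62e-27 for Atp5b. Uqcrc1, a core protein of complex III, was at 327, 346 and 314 CPM on day 0, 158, 160.3 and 150.5 on day 2 and 152, 159.7 and 157 on day 4. It reached its low level by day 2, and its days 2 and 4 overlapped (log2 fold change at day 4 against day 0 -1.07 ± 0.04, adjusted p = 2.21e-26). Atp5b and Uqcrc1 were chosen for this account after their values were seen.

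Members with and without the NRF1 letters both fell. Of the 16 whose promoter held the motif, 12 were lower and 1 was higher at day 4 than at day 0, with a median log2 fold change of -0.59 and a range from -1.23 to 0.15. Of the 48 other tested members with a promoter in the table, 36 were lower and 5 higher, with a median of -0.46. Ndufs6, Atp5g2, Uqcrc1 and Atp5o, whose motifs are printed above, had log2 fold changes of -1.23, -1.08, -1.07 and -0.91. The difference between the 2 sets was not tested.

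Some nuclear genes took another course in WT cells. Ndufv3, an accessory subunit of the NADH-binding arm of complex I, had 75.9, 73.4 and 63.8 CPM at day 0, 25.2, 25.5 and 23.7 at day 2 and 32.6, 38.5 and 39.6 at day 4. It dipped at day 2 (log2 fold change against day 0 -1.52 ± 0.08, adjusted p = 1.9e-22) and was higher at day 4 than at day 2 (0.58 ± 0.08, adjusted p = 2.27e-08), still under day 0 in every library. Uqcrb, a complex III subunit, went the other way, at 59.3, 59.5 and 61.8 CPM on day 0, 59.4, 70.5 and 63.8 on day 2 and 45.3, 40.8 and 41.4 on day 4. Its days 0 and 2 overlapped, and day 4 lay below both (day 4 against day 2 -0.61 ± 0.06, adjusted p = 7.18e-12). Between day 2 and day 4, 17 nuclear members rose and 22 fell, with a median log2 fold change of -0.03, where 59.4% of all genes were called, 30.2% higher and 29.2% lower. The risers included Cox6a1 (0.58 ± 0.05, adjusted p = 8.38e-13), a complex IV subunit, and Atp5s (0.75 ± 0.18, adjusted p = 0.000284), described as a coupling factor of the ATP synthase. Atp5s was low throughout, with 4.397, 4.13 and 3.81 CPM in WT at day 2 and 8.99, 5.48 and 6.49 at day 4.

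Isoform genes of complex IV and complex V differed in level and in course. Among the complex IV pairs at day 0 in WT cells, per kb of merged annotated exons, Cox4i1 had 243 ± 5.37 CPM per kb and its hypoxia-associated alternative Cox4i2 1.203 ± 0.704. Cox6b1 had 191 ± 4.66 CPM per kb and Cox6b2, known for its expression in testis, 15.1 ± 1.45. Cox7a2 had 122 ± 9.99 CPM per kb, Cox7a2l, known for holding supercomplexes together, 42.6 ± 0.81, and the heart and muscle isoform Cox7a1 6.24 ± 1.35. The single tested members of 3 other families, Cox6a1, Cox7b and Cox8a, had 172 ± 10.7, 120.05 ± 4.198 and 211 ± 25.2 CPM per kb. In each pair the minor isoform was below the major one in every library.

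Cox6b2 had the largest swing of the isoform genes above 5 CPM. It had 18.4, 16.7 and 15.2 CPM in WT at day 0, 6.94, 4.67 and 7.31 at day 2 and 20.8, 26.9 and 26.5 at day 4, and no days overlapped. The log2 fold change was -1.41 ± 0.15, adjusted p = 3.71e-11 at day 2 against day 0 and 1.97 ± 0.15, adjusted p = 8.5e-16 at day 4 against day 2. The 6 germ cell markers summed to 20.7 to 25.8 CPM at day 0, 74.8 to 81.1 at day 2 and 48.6 to 53.1 at day 4, with 1 of the 6 at 1 CPM or more and Tnp1 and Prm2 at 0 in every WT library, so their sum was highest where Cox6b2 was lowest. Cox6b1 had 139, 134 and 133 CPM at day 0, 102, 107 and 113 at day 2 and 118, 112 and 107 at day 4, with a log2 fold change of -0.27 ± 0.05, adjusted p = 5.58e-06 at day 4 against day 0.

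Ndufa4 kept close to 1 level in WT cells while its paralog was near 0 at days 2 and 4. Ndufa4 had 103, 101 and 108 CPM in WT at day 0, 104, 102 and 108 at day 2 and 109, 107 and 109 at day 4, and the log2 fold change at day 4 against day 0 was 0.06 ± 0.05, adjusted p = 0.272. At day 4 it had 95.1, 104 and 97.4 CPM in alpha-KO and 100.2, 96.8 and 95.2 in full-KO libraries, below every WT library (-0.13 ± 0.05, adjusted p = 0.0183 in alpha-KO, a call lost without its replicate 1 at -0.11, adjusted p = 0.0993, and -0.15 ± 0.05, adjusted p = 0.00679 in full-KO). Ndufa4l2, a gene known to be induced by hypoxia-inducible factor (HIF), had 4.61, 4.24 and 2.51 CPM at day 0, 0.433, 0.474 and 0.562 at day 2 and 0.145, 0.357 and 0.0574 at day 4, so that days 2 and 4 lay below day 0 in every library. It passed the filter on low counts through the day 0 libraries where it was high, so these values are given as a description, with no test. The counts of called members include it, but its calls are not read as results. At day 0 it had 1.55 and 1.85 CPM in full-KO libraries, below all 3 of WT. Cox4i2 had 1.58, 0.738 and 0.528 CPM at day 0 and 0.435, 0.357 and 0.689 at day 4, and those days overlapped (-0.93 ± 0.48, adjusted p = 0.0735).

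The 3 genes for the membrane ring of complex V, subunit c, encode the same mature protein behind different import sequences. In WT cells at day 0, Atp5g3 had 108 ± 5.65 CPM per kb, Atp5g2 19.2 ± 1.997 and Atp5g1 15.98 ± 1.76. These values divide by the merged length of all annotated exons, which can exceed that of the transcript made. The order of Atp5g1 and Atp5g2 depends on it, since in CPM Atp5g1 was the higher in every WT library at day 0. All 3 fell by day 4, with log2 fold changes of -1.19 ± 0.07, adjusted p = 1.04e-20 for Atp5g1, -1.08 ± 0.10, adjusted p = 2.24e-13 for Atp5g2 and -0.62 ± 0.04, adjusted p = 2.86e-17 for Atp5g3. Atp5g1 had 79.4, 86.7 and 69.4 CPM at day 0, 29.8, 30.7 and 33.04 at day 2 and 34.3, 32.5 and 36.2 at day 4, so its fall was complete by day 2, whereas Atp5g2 had 30.8, 35.9 and 29.6 CPM at day 0, 20.4, 21.4 and 20.1 at day 2 and 13.8, 14.1 and 17.6 at day 4 and stepped down at both days.

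**Figure D2:**
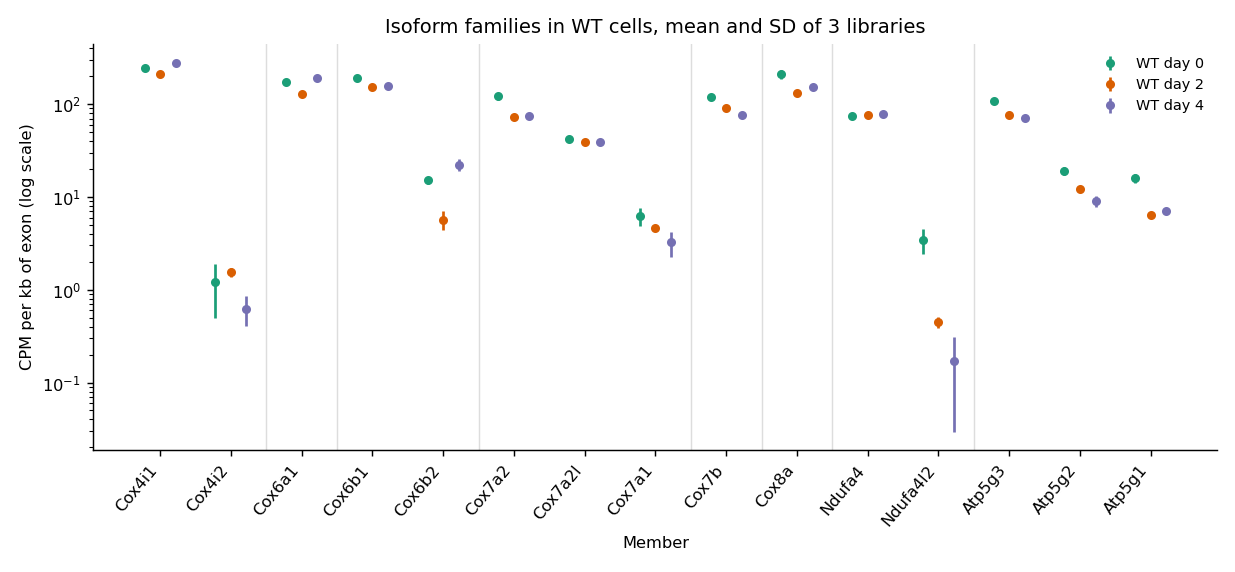
Level of the isoform genes of complexes IV and V in WT cells at days 0, 2 and 4, in CPM per kb of exon on a log axis, as the mean and SD of 3 libraries. Cox4i1 and Cox6b1 lie above Cox4i2 and Cox6b2 at every day, Cox6b2 dips at day 2, and Ndufa4l2 lies lower at days 2 and 4 than at day 0.

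Most of the mitochondrially encoded genes tested rose in WT cells. Of the 7, 4 rose and 1 fell by day 2, where 36.7% of all genes rose and 34% fell, and again by day 4, where 40.7% rose and 36.7% fell, with medians of 0.43 at day 2 and 0.45 at day 4 on the log2 scale. Between day 2 and day 4, edgeR called 0 of the 7, with 0 at an unadjusted p under 0.05 and 0 called by DESeq2. The complex I subunit mt-Nd6 had 478, 564 and 581 CPM at day 0, 952, 882 and 794 at day 2 and 820.1, 811 and 990.5 at day 4. Days 2 and 4 overlapped each other and lay above every day 0 library, with log2 fold changes against day 0 of 0.70 ± 0.07, adjusted p = 7.16e-13 and 0.69 ± 0.07, adjusted p = 5.75e-13. The complex III subunit mt-Cytb had 1781, 2165 and 2259.5 CPM at day 0, 3206, 3018 and 2734 at day 2 and 2810.3, 2881 and 3354 at day 4, again with every later library above day 0 (0.54 ± 0.06, adjusted p = 1.39e-10 at day 4). For mt-Nd5 and mt-Nd4 the log2 fold changes at day 4 were 0.45 ± 0.06, adjusted p = 9.23e-09 and 0.50 ± 0.06, adjusted p = 1.19e-10. For mt-Nd1 and mt-Nd2 they were -0.10 ± 0.06, adjusted p = 0.104 and 0.12 ± 0.06, adjusted p = 0.0866, and neither was called. The gene mt-Co1 fell (-0.15 ± 0.05, adjusted p = 0.00771), a call that was lost without WT day 4 replicate 1 (-0.08, adjusted p = 0.16). Its fall by day 2 (-0.17 ± 0.05, adjusted p = 0.00332) was lost without WT day 2 replicate 3 (-0.11, adjusted p = 0.069). Among the 7, the genes that rose lie after mt-Co1 in the coordinates of the mitochondrial genome, and the ones that did not lie at or before it. The ratio of the nuclear sum to the sum of these 7 was 0.631 to 0.779 in WT libraries at day 0, 0.405 to 0.489 at day 2 and 0.375 to 0.447 at day 4. The mitochondrial genes with 0 counts add nothing to that sum, so only differences in the ratio between libraries can be read, not its size.

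**Figure D3:**
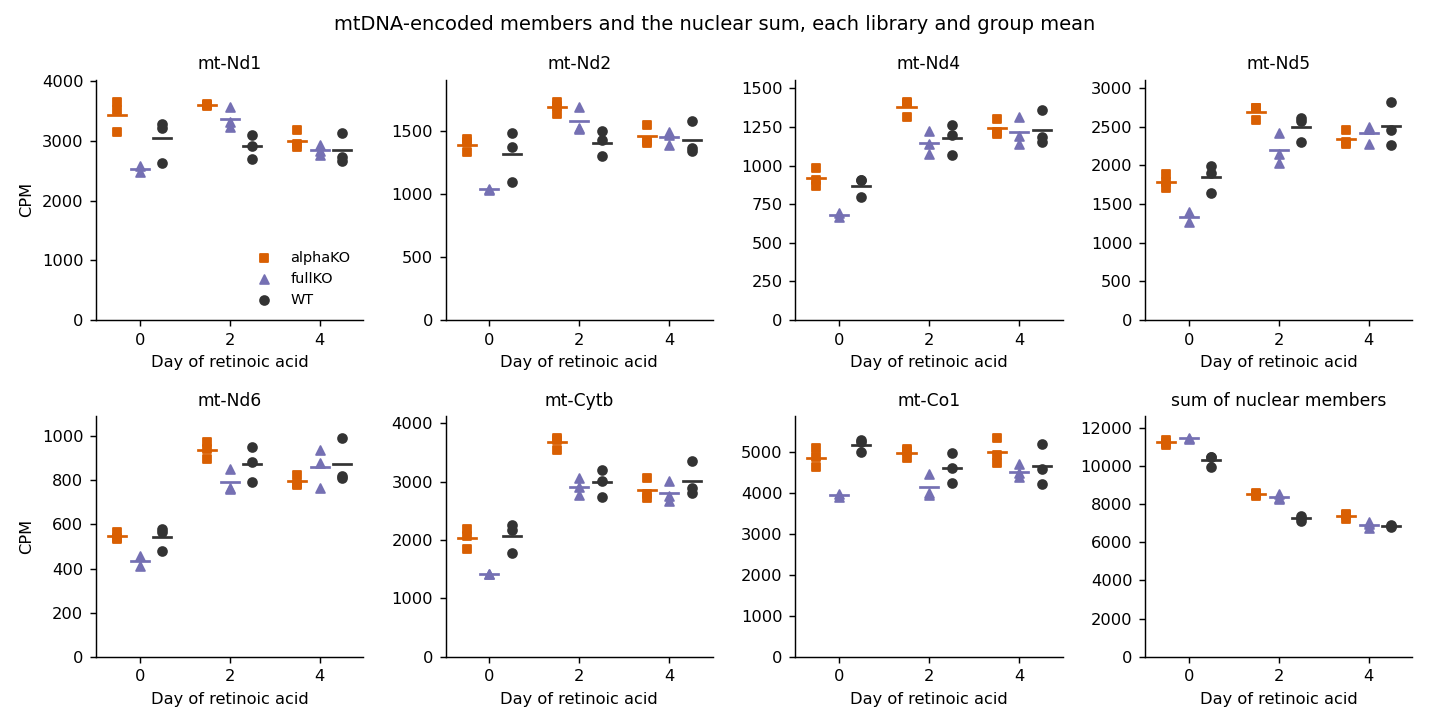
CPM of the 7 counted mitochondrially encoded genes by day and genotype, and the sum of the nuclear members, with points for the libraries and bars for the group mean. The full-KO libraries at day 0 are the lowest day 0 libraries for every gene, and mt-Cytb, mt-Nd4, mt-Nd5 and mt-Nd6 are higher at days 2 and 4 than at day 0 in each genotype.

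Genes that build and supply the chain were also more often lower than higher in WT cells at day 4, though not by the same margin in each list. Of all genes, 40.7% were called higher and 36.7% lower there. Of 29 genes for upkeep, transcription and mRNA handling of the mitochondrial genome, 24 were lower and 2 higher than at day 0 (median log2 fold change -1.01), among them the nuclease Mgme1 (-2.48), the RNase Z Elac2 (-1.70) and the elongation factor Tefm (-1.61). Tfam, which packages the mitochondrial genome and starts its transcription, averaged 49.2 ± 3.9003 CPM at day 4 and 128 ± 1.899 at day 0. Of 15 complex I assembly factors, 11 were lower and 1 higher (median -0.69), with Ndufaf6 at -1.80 and Ecsit at -1.74. Of 32 assembly factors of complexes II to V, 12 were lower and 10 higher (median -0.09), so this list was not mostly lower. Tmem70, which helps assemble the ATP synthase, rose (1.18) and Fmc1 fell (-1.52).

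Of 18 genes of pyruvate dehydrogenase and the citric acid cycle, 14 were lower and 2 higher at day 4 than at day 0 in WT cells, with a median of -0.53, and Idh3a was at -1.89. Of 16 genes for cytochrome c and coenzyme Q synthesis, 11 were lower and 4 higher (median -0.68), and the testis form of cytochrome c, Cyct, was at -3.49. Of 15 regulators of mitochondrial biogenesis, 9 were lower and 5 higher (median -0.85), with the nuclear receptor Esrrb, also a pluripotency gene, at -6.55 and Perm1 at 3.03. Of 19 HIF targets, 10 were lower and 9 higher (median -0.45), with Pdk1, a kinase that switches off pyruvate dehydrogenase, at -4.37. Of the subunits that the symbol patterns miss, Cyc1 was at -1.21 and Ndufab1 at 0.01. These counts stand beside 40.7% of all genes higher and 36.7% lower in that comparison.

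In both knockouts more nuclear subunit genes were called higher than lower against WT cells at days 0 and 2, with small median changes. The alpha-KO and full-KO comparisons share the same WT libraries. At day 0, 31 of the 80 nuclear members were higher and 3 lower in alpha-KO cells (median log2 fold change 0.11), where 38.6% of all genes were called, 17.7% higher and 20.9% lower. In full-KO cells 24 were higher and 2 lower (median 0.10), where 33.9% were called, 16.2% higher and 17.7% lower. The lower ones include Ndufa4l2, whose call is not read as a result. At day 2 the counts were 38 higher and 1 lower in alpha-KO cells (median 0.16), where 40.2% were called, 19.9% higher and 20.3% lower, and 41 higher and 1 lower in full-KO cells (median 0.13), where 47.6% were called, 23.8% in each direction.

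The summed level of the nuclear members showed the same gap. At day 0 it was 11091 to 11361 CPM in alpha-KO, 11428 to 11440.00 in full-KO and 9958 to 10475 in WT libraries, and at day 2 it was 8437 to 8593 in alpha-KO, 8261 to 8525 in full-KO and 7127 to 7397 in WT libraries, with both knockouts above WT in every library. At day 4 it was 7236 to 7495 CPM in alpha-KO, 6743 to 7037 in full-KO and 6794 to 6901 in WT libraries. Every alpha-KO library was then above WT, and full-KO overlapped it. Pluripotency markers summed to more in both knockouts than in WT cells at each day. At day 2 they summed to 649.7 to 689.9 CPM in alpha-KO, 1096 to 1209.7 in full-KO and 406 to 417 in WT cells. At day 4, where the nuclear sum of full-KO cells overlapped WT, they summed to 269 to 289 CPM in alpha-KO, 401 to 423 in full-KO and 73.3 to 83.6 in WT cells. Their part in the result was not tested.

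At day 4 the knockouts parted. In alpha-KO cells 30 nuclear members were higher and 6 lower than in WT cells, where 52.7% of all genes were called, 28.7% higher and 24% lower, so the 37.5% of nuclear members that were higher stood beside 28.7% of all genes. In full-KO cells 16 were higher and 18 lower, where 49.6% were called, 25.1% higher and 24.5% lower. Set against each other directly, alpha-KO exceeded full-KO cells in 30 nuclear members and fell below them in 3 (median log2 fold change 0.11), where 32.7% of all genes were called, 17.4% higher and 15.4% lower.

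Sdha and Ndufb8 were higher in both knockouts at all 3 days, and neither is on chromosome 1. Sdha, the flavoprotein of complex II, had 335, 330.4 and 329.9 CPM in alpha-KO, 342 and 353 in full-KO and 276, 283 and 279 in WT libraries at day 0, and the knockouts did not overlap WT. Its log2 fold changes at days 0, 2 and 4 were 0.25, 0.19 and 0.14 in alpha-KO and 0.31, 0.19 and 0.15 in full-KO cells, with the largest adjusted p = 0.000733. Ndufb8, an accessory subunit of the membrane arm of complex I, had 76.9, 68.02 and 71.96 CPM in alpha-KO, 73.4, 74.3 and 67.1 in full-KO and 54.99, 52.7 and 54.7 in WT libraries at day 2, again with no overlap. Its log2 fold changes over the 3 days were 0.32, 0.42 and 0.34 in alpha-KO and 0.38, 0.40 and 0.26 in full-KO cells, with the largest adjusted p = 0.00064. Both were chosen for this account after their values were seen.

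At day 0, the 3 largest rises among members at 5 CPM or more lay on chromosome 1 in both knockouts. The members on it that are described here are Cox5b of complex IV (chromosome 1, 36691449 to 36693681), Ndufb3 (58586384 to 58595964), Ndufs1 (63143596 to 63176833) and Ndufa10 (92439010 to 92473860) of complex I, and Sdhc of complex II (171127165 to 171150603). Cox5b, a regulatory subunit, had 136, 145 and 152 CPM in alpha-KO, 147 and 144 in full-KO and 80.8, 81.2 and 70.1 in WT libraries at day 0, with log2 fold changes of 0.90 ± 0.06, adjusted p = 5.01e-17 in alpha-KO and 0.91 ± 0.06, adjusted p = 7.67e-16 in full-KO cells. Every knockout library exceeded every WT library.

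Ndufa10, an accessory subunit of complex I, had 212, 209 and 209.6 CPM in alpha-KO, 191 and 191 in full-KO and 119, 124 and 115 in WT libraries at day 0. Ndufs1, which carries iron-sulfur clusters in the NADH arm, had 259.98, 258 and 245 CPM in alpha-KO, 245 and 237 in full-KO and 160.3, 157 and 165 in WT libraries. Ndufb3, an accessory subunit of the membrane arm, had 62.1, 63.9 and 63.3 CPM in alpha-KO, 59.1 and 55.6 in full-KO and 35.3, 35.5 and 37.6 in WT libraries. None of the 3 overlapped between either knockout and WT at day 0. Over the 3 days, the log2 fold changes of these 3 genes and Cox5b lay between 0.52 and 0.90 in alpha-KO and between 0.45 and 0.91 in full-KO cells, and Cox5b at day 4 and at day 0 was at both ends.

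Sdhc, a membrane anchor of complex II encoded farther along the chromosome, differed less. It had 129.6, 126 and 125 CPM in alpha-KO, 108 and 106 in full-KO and 94.03, 103 and 93.3 in WT libraries at day 0 (0.39 ± 0.05, adjusted p = 1.67e-08 in alpha-KO and 0.14 ± 0.06, adjusted p = 0.0495 in full-KO). The full-KO call was lost without replicate 1 or 3 of WT or either full-KO library, at log2 fold changes of 0.10 to 0.16 and adjusted p of 0.119 to 0.355. The gap between the knockouts was itself called, at 0.25 ± 0.06, adjusted p = 0.000571 at day 0 and 0.31 ± 0.05, adjusted p = 5.58e-06 at day 4.

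Genes around these members moved too. The 100 tested genes nearest to Cox5b had a median log2 fold change of 0.53 in alpha-KO and 0.61 in full-KO cells at day 0, with 79 and 80 of the 100 above 0. The medians were 0.52 in alpha-KO and 0.52 in full-KO cells around Ndufa10, 0.44 in alpha-KO and 0.46 in full-KO around Ndufb3, and 0.41 in alpha-KO and 0.47 in full-KO around Ndufs1. Around Sdhc they were 0.09 in alpha-KO and -0.05 in full-KO cells. Of all 1115 tested genes on chromosome 1, 48.3% were higher and 7.26% lower in alpha-KO cells at day 0, and 37.1% higher and 13.7% lower in full-KO cells. Outside chromosome 1 the shares were 15.7% higher and 21.7% lower in alpha-KO, and 14.9% higher and 18% lower in full-KO cells. The chromosome and the genotype cannot be told apart for these members. Away from chromosome 1, 25 of 74 nuclear members were higher and 3 lower in alpha-KO, and 19 higher and 2 lower in full-KO cells at day 0, with medians of 0.09 in both, so the higher level was not confined to chromosome 1.

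**Figure D4:**
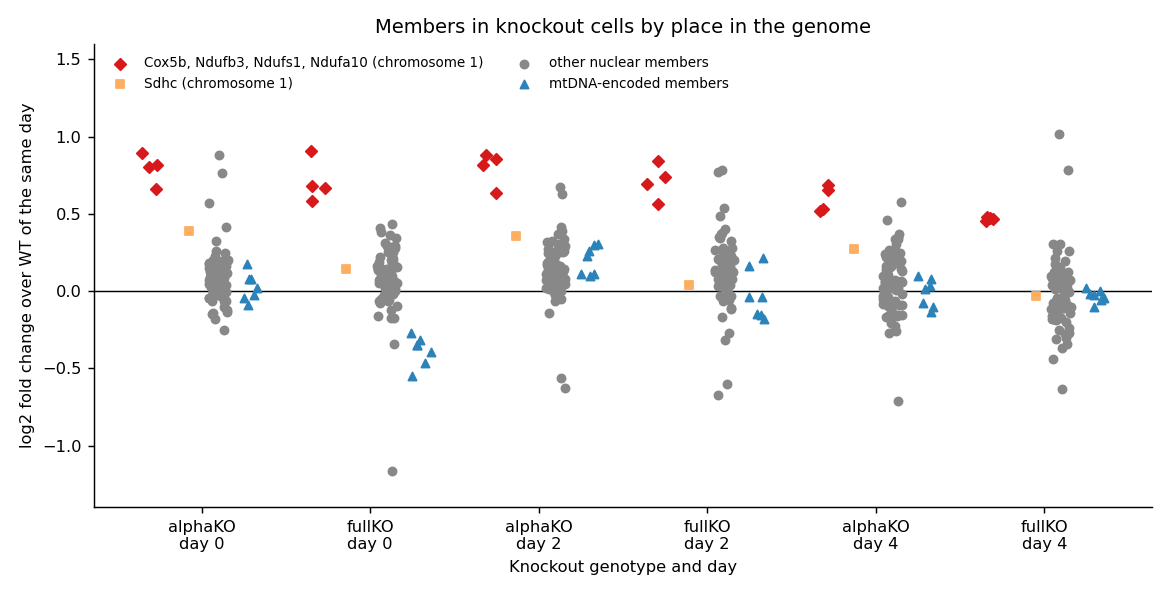
Log2 fold change of the subunit genes reported here, a point per gene, in alpha-KO and full-KO cells against WT cells at each day, split by place into chromosome 1 (diamonds and squares), other nuclear (circles) and mitochondrial (triangles). Chromosome 1 members reach 0.90 in alpha-KO and 0.91 in full-KO cells at day 0, and the mitochondrial members of full-KO cells at day 0 all lie below 0.

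The mitochondrially encoded genes separated the knockouts. In full-KO cells at day 0, all 7 tested were lower than in WT cells, with a median log2 fold change of -0.35. Of all genes, 16.2% were called higher and 17.7% lower in full-KO cells at that day, and 17.7% higher and 20.9% lower in alpha-KO cells. In alpha-KO cells mt-Nd1 was higher at day 0 (0.18 ± 0.06, adjusted p = 0.0115) and no other was called, a result that was lost without WT replicate 1 or alpha-KO replicate 1, at log2 fold changes of 0.08 to 0.13 and adjusted p of 0.0906 to 0.26, and DESeq2 called 0 of the 7. The gene mt-Cytb had 2185, 2071 and 1852 CPM in alpha-KO, 1410.3 and 1419 in full-KO and 1781, 2165 and 2259.5 in WT libraries. Both full-KO libraries were below every other day 0 library (-0.55 ± 0.07, adjusted p = 2.03e-08 against WT, and 0.53 ± 0.07, adjusted p = 9.49e-08 for alpha-KO against full-KO). For mt-Nd5 the values were 1883, 1782 and 1703 CPM in alpha-KO, 1270.4 and 1402 in full-KO and 1641, 1902 and 1992 in WT libraries (-0.47 ± 0.07, adjusted p = 3.5e-07 for full-KO against WT).

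The same held for the rest. At day 0 mt-Co1 had 5085, 4856 and 4620.3 CPM in alpha-KO, 3889 and 3972 in full-KO and 4998, 5229 and 5276 in WT libraries (-0.39 ± 0.06, adjusted p = 2.78e-07 for full-KO against WT). For mt-Nd1, mt-Nd2, mt-Nd4 and mt-Nd6 the log2 fold changes in full-KO cells were -0.27, -0.35, -0.35 and -0.32, with the largest adjusted p = 0.000747. The 2 full-KO libraries did not overlap WT for any of the 7 genes, but the gap was narrow for mt-Nd6, with 411 and 457 CPM in full-KO and 478, 564 and 581 in WT libraries, and the lowest WT library was the same one, replicate 1, for all 7. The summed level of the 7 was 11168 and 11562 CPM in full-KO and 13432 to 15779 in WT libraries. The ratio of the nuclear sum to it was 1.02 and 0.988 in full-KO and 0.631 to 0.779 in WT libraries. Its size depends on which mitochondrial genes were counted. The fibroblast marker sum was lowest in the same full-KO libraries, as given above, and its part in the result was not tested.

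By day 2 the order had changed. In alpha-KO cells 4 of the 7 were higher than in WT cells and 0 lower, with a median of 0.23, where 19.9% of all genes were called higher and 20.3% lower. The rise in mt-Cytb was 0.30 ± 0.06, adjusted p = 0.000125, with 3741, 3718 and 3549 CPM in alpha-KO and 3206, 3018 and 2734 in WT libraries, and mt-Nd1 was at 0.31 ± 0.06, adjusted p = 1.76e-05. In full-KO cells 2 were higher and 2 lower at day 2, where 23.8% of all genes were called in each direction. Those were mt-Nd1 (0.21 ± 0.06, adjusted p = 0.00172) and mt-Nd2 (0.16 ± 0.06, adjusted p = 0.0261) on the one side, and mt-Nd5 (-0.18 ± 0.06, adjusted p = 0.0119) and mt-Co1 (-0.16 ± 0.05, adjusted p = 0.0106) on the other. The call of mt-Nd2 was lost without WT replicate 3 or full-KO replicate 2, that of mt-Nd5 without WT replicate 1 or 2 or full-KO replicate 3, and that of mt-Co1 without WT replicate 1 or full-KO replicate 3, at log2 fold changes of 0.11 both times and adjusted p of 0.191 to 0.199 for mt-Nd2, -0.16 to -0.13 and adjusted p of 0.0567 to 0.122 for mt-Nd5 and -0.12 to -0.11 and adjusted p of 0.0755 to 0.117 for mt-Co1. DESeq2 called 2 of the 7. At day 4 edgeR called 0 mitochondrial members in either knockout against WT cells, with 1 in alpha-KO (mt-Nd6) and 0 in full-KO cells at an unadjusted p under 0.05, and DESeq2 called 0. Alpha-KO exceeded full-KO cells in 7 of the 7 at day 0 (median 0.43), where 29% of all genes were called, 14.4% higher and 14.6% lower, and in 5 at day 2 (median 0.26), where 25.3% were called. At day 4 it was 1, mt-Co1 (0.14 ± 0.05, adjusted p = 0.0249), which was lost without replicate 2 or 3 of alpha-KO or replicate 1 or 2 of full-KO cells, at 0.10 to 0.15 and adjusted p of 0.051 to 0.21, and DESeq2 called 0. Counting nuclear members as well, 17 of the 87 were called at day 0, and 11 without full-KO replicate 1.

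Some members changed over time differently in the knockouts than in WT cells, by the test of the difference between the 2 changes. Only in full-KO cells from day 0 to day 4 was the share of members called above that of all genes. From day 0 to day 2, 15 members (17.2%) had a higher change in alpha-KO than in WT cells and 2 (2.3%) a lower one. Of all genes 32.2% were called there, 17.5% higher and 14.8% lower. In full-KO cells 14 (16.1%) were higher and 4 (4.6%) lower, where 28.6% were called, 15.7% higher and 12.8% lower. From day 0 to day 4 it was 10 and 10 in alpha-KO cells, where 44% were called, 24.2% higher and 19.7% lower. In full-KO cells it was 9 higher and 26 lower, where 35.2% were called, 19.5% higher and 15.7% lower. All 26 of those with a lower change were nuclear, 12 of them in complex I and 7 in complex IV, and 7 of the 9 with a higher one were the mitochondrial genes. The median difference between the changes was -0.16 over the 80 nuclear members tested and 0.35 over the 7 mitochondrial ones, of which DESeq2 called 5. In full-KO against WT cells those 7 had medians of -0.35 at day 0, where full-KO had 2 libraries, and -0.02 at day 4. Their differences in change thus largely restate the day 0 gap. The call of mt-Nd1 was lost without WT day 0 replicate 3 (0.21, adjusted p = 0.0541), and that of mt-Nd6 without any 1 of 5 libraries, which were WT day 0 replicate 3, WT day 4 replicates 1 and 2 and replicate 1 of full-KO at days 0 and 4, at 0.23 to 0.25 and adjusted p of 0.0599 to 0.0934.

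Atp5g1, for subunit c of the ATP synthase, fell less by day 2 in both knockouts. At day 2 it had 49.2, 49.3 and 50.6 CPM in alpha-KO, 55.1, 50.2 and 54.3 in full-KO and 29.8, 30.7 and 33.04 in WT libraries, whereas at day 0 it had 74.2, 78.1 and 72.8 in alpha-KO, 87.5 and 80.4 in full-KO and 79.4, 86.7 and 69.4 in WT libraries. The groups overlapped at day 0 and the knockouts lay above WT at day 2. The change from day 0 to day 2 differed from that in WT cells by 0.74 ± 0.09, adjusted p = 1.55e-08 in alpha-KO and 0.67 ± 0.10, adjusted p = 4.04e-07 in full-KO cells.

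Cox7c, a small subunit of complex IV, crossed over. At day 0 it had 98.6, 103 and 98.7 CPM in alpha-KO, 103 and 109 in full-KO and 106, 129 and 123 in WT libraries, and was lower in both (-0.25 ± 0.06, adjusted p = 0.000276 in alpha-KO and -0.17 ± 0.06, adjusted p = 0.0294 in full-KO). The full-KO difference at day 0 was not called without either full-KO library or without replicate 2 or 3 of WT, at log2 fold changes of -0.21 to -0.11 and adjusted p of 0.052 to 0.207. At day 4 it had 75.4, 84.4 and 83.7 CPM in alpha-KO, 66.8, 67.9 and 67.1 in full-KO and 51.7, 58.2 and 53.4 in WT libraries, and was higher in both without overlap (0.57 ± 0.06, adjusted p = 3.48e-11 in alpha-KO and 0.30 ± 0.06, adjusted p = 4.4e-05 in full-KO). The change from day 0 to day 4 differed from that in WT cells by 0.83 ± 0.08, adjusted p = 1.49e-11 in alpha-KO and 0.48 ± 0.09, adjusted p = 2.13e-05 in full-KO cells.

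Cox6b2 was lower in both knockouts at day 4, and in alpha-KO cells also at day 2. It had 13.7, 18.2 and 13.2 CPM in alpha-KO, 14.6, 16.3 and 16.97 in full-KO and 20.8, 26.9 and 26.5 in WT libraries at day 4, with every knockout library below WT (-0.71 ± 0.13, adjusted p = 8.11e-06 in alpha-KO and -0.64 ± 0.13, adjusted p = 4.62e-05 in full-KO). Its change from day 0 to day 4 differed from that in WT cells by -0.91 ± 0.18, adjusted p = 6.36e-05 in alpha-KO and -0.77 ± 0.20, adjusted p = 0.0015 in full-KO cells. At day 2 it had 4.34, 4.58 and 3.398 CPM in alpha-KO, 5.01, 5.35 and 5.37 in full-KO and 6.94, 4.67 and 7.31 in WT libraries, with every alpha-KO library below WT (-0.63 ± 0.18, adjusted p = 0.00524) and full-KO overlapping it. At day 0 the 3 genotypes overlapped, with 15.9, 17.7 and 23.9 CPM in alpha-KO, 18.3 and 18.6 in full-KO and 18.4, 16.7 and 15.2 in WT libraries.

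Cox4i1, the main form of subunit 4 of complex IV, exceeded WT in both knockouts at day 0 and in neither at day 4. It had 418, 444 and 438 CPM in alpha-KO, 483 and 488 in full-KO and 385, 379 and 368 in WT libraries at day 0 (0.20 ± 0.04, adjusted p = 4.79e-05 in alpha-KO and 0.36 ± 0.04, adjusted p = 2.68e-09 in full-KO). At day 4 the values were 370.4, 370.03 and 357 in alpha-KO, 393, 411 and 446 in full-KO and 436, 417 and 429 in WT libraries, and alpha-KO was lower than WT (-0.22 ± 0.04, adjusted p = 4.38e-06), while the full-KO difference was not called (-0.04 ± 0.04, adjusted p = 0.477). The direct comparison of alpha-KO with full-KO cells at day 4 gave -0.19 ± 0.04, adjusted p = 0.000162.

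Ndufv3 dipped less at day 2 in both knockouts, with 32.6, 29.9 and 29.3 CPM in alpha-KO, 30.9, 32.5 and 31.1 in full-KO and 25.2, 25.5 and 23.7 in WT libraries. Its change from day 0 to day 2 differed from that in WT cells by 0.43 ± 0.11, adjusted p = 0.00115 in alpha-KO and by 0.41 ± 0.11, adjusted p = 0.00344 in full-KO cells. Among the complex I members that fell at day 4 in full-KO cells, Ndufb2, an accessory subunit of the membrane arm, had 8.35, 8.06 and 8.35 CPM in full-KO and 11.1, 12.4 and 10.1 in WT libraries, without overlap (-0.44 ± 0.12, adjusted p = 0.00268), and Ndufa1 had 19.4, 23.6 and 20.64 in full-KO and 27.9, 29.2 and 25.3 in WT libraries (-0.37 ± 0.09, adjusted p = 0.000366).

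**Figure D5:**
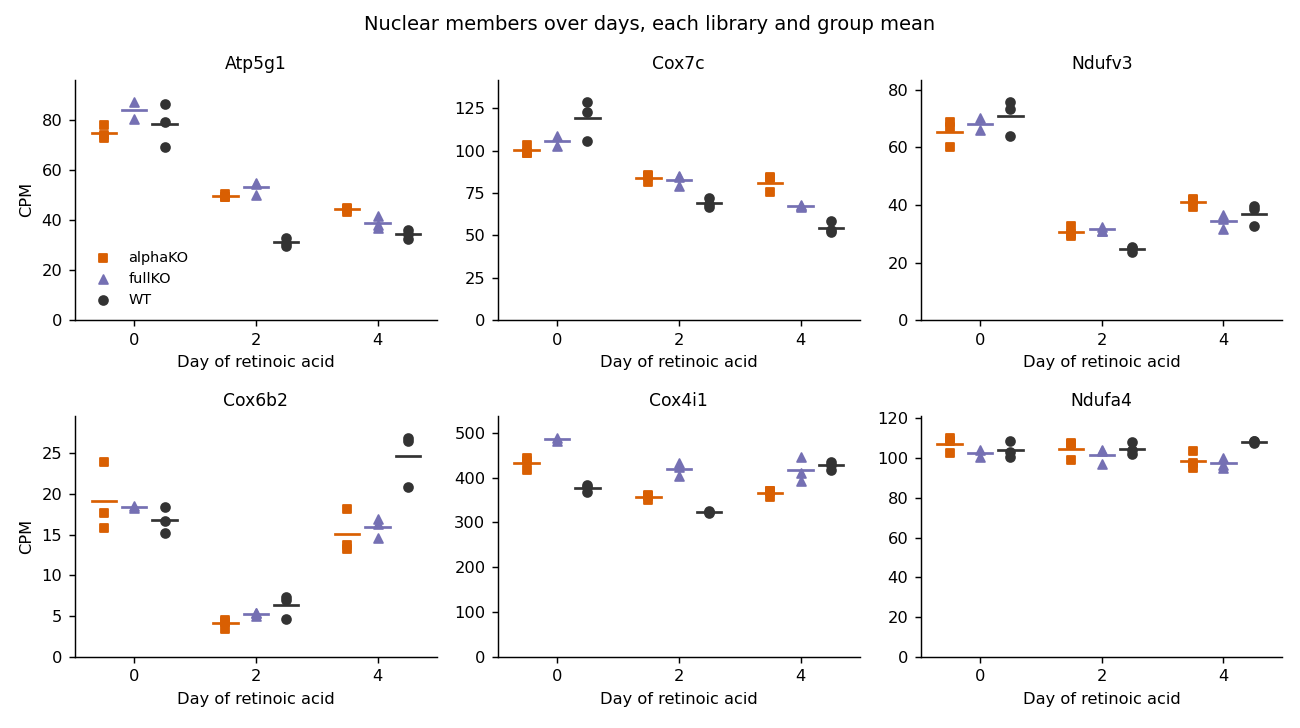
CPM by day of Atp5g1, Cox7c, Ndufv3, Cox6b2, Cox4i1 and Ndufa4 in alpha-KO, full-KO and WT cells, with points for the libraries and bars for the group mean. At day 2 the knockout points of Atp5g1 lie above the WT points, at day 4 those of Cox7c lie above and those of Cox6b2 below them, and Ndufa4 lies between 95.1 and 110.0 in all 26 libraries.

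Ndufa8, an accessory subunit of complex I, changed sides in full-KO cells. At day 0 it had 50.6, 52.5 and 55.8 CPM in alpha-KO, 58.6 and 54.4 in full-KO and 47.7, 47.1 and 43.8 in WT libraries. The excess in full-KO cells at day 0 (0.29 ± 0.07, adjusted p = 0.000986) was not called without full-KO replicate 1 (0.21, adjusted p = 0.0916). At day 4 it had 36.7, 36.5 and 36.1 CPM in alpha-KO, 27.7, 31.8 and 30.1 in full-KO and 36.3, 33.999 and 35.7 in WT libraries, so that full-KO lay below the others (-0.24 ± 0.07, adjusted p = 0.00296 against WT). Its change from day 0 to day 4 differed from that in WT cells by -0.53 ± 0.10, adjusted p = 2.39e-05.

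Few nuclear members were lower in the knockouts at days 0 and 2. In alpha-KO cells at day 0, besides Cox7c, they were Uqcr11 (-0.18 ± 0.06, adjusted p = 0.0124) and Uqcrh (-0.14 ± 0.05, adjusted p = 0.038) of complex III, whose calls were lost with a fit of only the groups compared (-0.16, adjusted p = 0.0637 for Uqcr11 and -0.11, adjusted p = 0.104 for Uqcrh). The call of Uqcr11 was also lost without WT replicate 1 or alpha-KO replicate 3, at -0.15 to -0.14 and adjusted p of 0.0743 to 0.088, and that of Uqcrh without WT replicate 1 or alpha-KO replicate 2 or 3, at -0.14 to -0.10 and adjusted p of 0.0833 to 0.224. In full-KO cells at day 0 they were Cox7c and Ndufa4l2. The latter passed the filter on low counts through day 0 libraries where it was high, so its call is not read as a result. In alpha-KO cells at day 2 the nuclear one was Cox6b2, and in full-KO cells at day 2 it was Atp5d of the ATP synthase head (-0.17 ± 0.05, adjusted p = 0.00925), lost without WT replicate 3 or full-KO replicate 3, at -0.14 to -0.12 and adjusted p of 0.0661 to 0.104.

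The 2 knockouts differed in other subunits too. At day 0, Cox5a of complex IV had 92.5, 98.9 and 92.8 CPM in alpha-KO and 116 and 105 in full-KO libraries (-0.22 ± 0.06, adjusted p = 0.00655), a call lost without full-KO replicate 1 (-0.12, adjusted p = 0.349). At day 4, Ndufs8, an iron-sulfur subunit of complex I, had 34.7, 37.04 and 34.5 CPM in alpha-KO and 25.3, 27.8 and 29.04 in full-KO libraries, with no overlap (0.37 ± 0.07, adjusted p = 6.99e-05). Atp5g3 had 183, 187 and 182 CPM in alpha-KO and 147, 152 and 143 in full-KO libraries at day 4, again apart (0.32 ± 0.04, adjusted p = 9.3e-08). At day 2, Ndufa6 of complex I was lower in alpha-KO, with 32.6, 35.9 and 35.1 CPM in alpha-KO and 40.9, 43.6 and 40.4 in full-KO libraries (-0.27 ± 0.07, adjusted p = 0.00386).

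Not all lists of supply genes had more members higher than lower in the knockouts. Of the 18 genes of pyruvate dehydrogenase and the citric acid cycle, 14 were higher and 0 lower in alpha-KO cells and 12 higher and 2 lower in full-KO cells at day 2. At day 4 it was 8 higher and 6 lower in alpha-KO and 2 higher and 7 lower in full-KO cells. Of the 29 genes for upkeep and expression of the mitochondrial genome, 4 were higher and 9 lower in alpha-KO and 3 higher and 2 lower in full-KO cells at day 0, 9 higher and 1 lower in alpha-KO and 12 higher and 2 lower in full-KO cells at day 2, and 13 higher and 2 lower in alpha-KO and 11 higher and 1 lower in full-KO cells at day 4. Of 19 HIF targets at day 0, 2 were higher and 7 lower in alpha-KO, and 3 higher and 10 lower in full-KO cells (median -0.41). At day 2 it was 6 higher and 7 lower in alpha-KO and 4 higher and 7 lower in full-KO cells. Of the 16 genes of cytochrome c and coenzyme Q synthesis at day 2, 5 were higher and 1 lower in alpha-KO and 4 higher and 2 lower in full-KO cells. The shares of all genes called in these comparisons are those given with the subunits at the same day.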

How the data were processed

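RNA from 26 libraries of KH2 cells had been sequenced, and the deposited table holds read counts per gene made by the authors. Reads were checked with FastQC and aligned with STAR 2.7.1a to mm10, per the submitters' processing notes. The counting tool, its strand setting and its treatment of reads with several matches do not appear in the labels or the file header. Libraries held 13537267 to 20569706 counts, and 55230 of 55471 rows matched GENCODE M21 by gene ID.

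Counts were filtered (filterByExpr) and scaled (TMM), and 9 group means were fitted in edgeR 4.0.16 with limma 3.58.1 in R 4.3.3, with 17 residual degrees of freedom, a quasi-likelihood test and Benjamini-Hochberg adjustment over 18412 genes. CPM use the TMM library sizes, and CPM per kb divide by the length of the merged exons. The 50-base stretches and promoter letters were read with Python 3.11.15, and figures drawn with matplotlib 3.10.9.

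DESeq2 1.42.0, RLE scaling, no filter, a stricter filter, scaling without mitochondrial rows, a fit of only the groups compared, a replicate block and leaving out each library were tried as alternatives. On simulated data for alpha-KO against WT cells at day 0 (16064 genes), 67% of 1.25-fold and 95% of 1.5-fold changes were found, and for full-KO against WT cells (16060 genes), 51% of 1.25-fold and 90% of 1.5-fold changes.

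The members, gene lists and marker lists were chosen with earlier results of these data known. The genes named were the mitochondrial members, the isoform families, members on chromosome 1 and, per comparison, up to 3 called rises and 3 called falls, the largest among members averaging 5 CPM or more in 1 of the groups. From each pathway list, up to 3 genes were named by the same rule. Exceptions chosen after their values were seen are Atp5b, Uqcrc1, Sdha, Ndufb8, Tfam, Cyc1 and Ndufab1. 1 member is not reported here by name.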

Additional observations from a re-analysis of the deposited data

Results flagged for a closer look

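In these members the change from day 0 differed between a knockout and WT cells by edgeR's test of the difference between the 2 changes, and each value is the change in the knockout minus that in WT cells on the log2 scale. From day 0 to day 2 in alpha-KO cells, the difference was 0.74 for Atp5g1, 0.53 for Cox7c, 0.43 for Ndufv3, -0.82 for Cox6b2 and -0.26 for Cox5b. From day 0 to day 4 in alpha-KO cells, it was 0.83 for Cox7c, 0.48 for Atp5g2, 0.43 for Atp5g1, -1.03 for Cox7a1, -0.91 for Cox6b2 and -0.42 for Cox4i1.

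In full-KO cells from day 0 to day 2, the difference was 0.83 for Atp5s, 0.67 for Atp5g1, 0.51 for mt-Cytb, -0.34 for Cox5b, -0.32 for Cox5a and -0.26 for Ndufb7. From day 0 to day 4 in full-KO cells, it was 0.48 for Cox7c, -0.77 for Cox6b2, -0.73 for Ndufb2 and -0.53 for Ndufa8. Over the same days the mitochondrial genes differed by 0.45 for mt-Cytb, 0.41 for mt-Nd5, 0.37 for mt-Nd2, 0.35 for mt-Co1, 0.33 for mt-Nd4, 0.29 for mt-Nd6 and 0.27 for mt-Nd1.

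Leaving out 1 library ended some of these calls. In alpha-KO cells, Cox5b was lost without WT day 0 replicate 3 (-0.20, adjusted p = 0.0707), and Cox7a1 without replicate 1 of WT at day 0 or day 4 or of alpha-KO at day 4 (-0.86 to -0.79, adjusted p of 0.0554 to 0.098). In full-KO cells from day 0 to day 2, Atp5s was lost without full-KO day 0 replicate 1 or day 2 replicate 3 (0.68 to 0.72, adjusted p of 0.0563 to 0.0816), and Cox5a without full-KO day 0 replicate 1 (-0.23, adjusted p = 0.1). Ndufb7 was lost without any 1 of 7 libraries, which were WT day 0 replicate 3, WT day 2 replicates 2 and 3, either full-KO library at day 0 and full-KO day 2 replicates 2 and 3 (-0.27 to -0.20, adjusted p of 0.0505 to 0.124). From day 0 to day 4 in full-KO cells, mt-Nd1 was lost without WT day 0 replicate 3 (0.21, adjusted p = 0.0541), and mt-Nd6 without WT day 0 replicate 3, WT day 4 replicate 1 or 2 or full-KO replicate 1 at day 0 or day 4 (0.23 to 0.25, adjusted p of 0.0599 to 0.0934).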

How the results depend on the processing

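All 128 counts of called members under DESeq2, RLE scaling, other filters, scaling without mitochondrial rows, a fit of only the groups compared, the replicate block and a count without the members on chromosomes 1, 14 and Y lay within 1.5 times the counts reported. With 1 library left out, 115 counts did and 1 did not. The exception was alpha-KO against full-KO cells at day 0, where 17 members were called and the counts ran from 11, without full-KO replicate 1, to 18. At that day the median of the nuclear members was -0.02 with all libraries. It was 0.01 without alpha-KO replicate 1 and 0.02 without full-KO replicate 1, so its sign turned. At day 4 the median was 0.11 with all libraries. It was 0.09 with only the groups compared, 0.10 without full-KO replicate 1 and 0.13 without full-KO replicate 3. Of the values of named members, 15 missed the threshold and 629 kept to their side of it under other settings, 50 missed it and 616 kept to theirs with 1 library left out, and none turned direction.

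Same-numbered replicates did not deviate together (correlations of -0.113 to 0.118 over 100 pairs, median 0.0012). This cannot show whether they came from the same series of cultures, and the labels do not say. With replicate number as a block, the counts were 70 for day 2 and 74 for day 4 against day 0 in WT cells, 34, 43 and 35 at days 0, 2 and 4 in alpha-KO and 31, 46 and 32 in full-KO cells against WT, and 15, 16 and 34 for alpha-KO against full-KO. At day 0 the block ended the calls of Cox7a1 (adjusted p = 0.0635) and Ndufs8 (adjusted p = 0.0529) between the knockouts.

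With 2 or 3 libraries a group, the simulated data recovered 51% of the smaller changes for full-KO cells at day 0, so differences of that size can be missed. The 6 mitochondrial genes with 0 counts and the 5 nuclear members under the filter gave no test. The labels do not say that replicates were separate cultures.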
